A study of Homo sapiens with 8 samples.

Results

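The response of SK-MES-1 cells to *miR-150-3p* was measured on 1 of the 8 two-color expression arrays of the study. SK-MES-1 is an established line of human lung squamous cell carcinoma (LUSQ). On this array the RNA of cells transfected with *miR-150-3p* was labeled with Cy5 (red) and the RNA of control cells with Cy3 (green). All named genes with a probe well above background in at least 1 of both channels were described, which gave 16178 genes. Over the 8 arrays, the number of counted genes ranged from 14759 to 16178.

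The SK-MES-1 cells of both channels carried no genetic change that the labels name. They were grown in EMEM medium according to the methods, and the miRNA was given with Lipofectamine RNAiMAX. The labels call the control both mock and without transfection, so whether it received the reagent or a control miRNA is not settled here. The other arrays held EBC-1, a second LUSQ line, with *miR-150-3p* over mock (1 array), SBC-3 cells with siRNAs against *DONSON* over control cells (3 arrays) and A549 cells with *LOXL2* edited over control cells (3 arrays). The treated RNA was in red on all 8 arrays, and all lay on 1 slide. No dye swap was made, so a gene's own preference for a dye and its response cannot be told apart in a single array. The 6 arrays of SBC-3 and A549 are therefore given beside the results as the values that the same probes had with other treatments. SK-MES-1 had 1 array and no replicate, so no p-value is given. The number of arrays limits the precision, and values after ± are the error that the scanner software gives to a log2 ratio. The median of this error was 0.21.

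A miRNA is a short RNA that guides Argonaute proteins to partly matching sites in mRNAs, which lowers the stability and translation of these mRNAs. The *miR-150* precursor yields a guide strand, *miR-150-5p*, and a passenger strand, *miR-150-3p*, which is usually degraded. Double-stranded RNA that enters a cell by transfection can also be met by sensors of viral RNA such as RIG-I and MDA5, which raise interferons and the genes that these induce. LUSQ cells descend from or resemble the basal and squamous cells of the airway, and the transcription factors p63 and SOX2 and the keratins of basal cells are their usual markers.

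The control channel was set against cell type markers first. Of 28 squamous markers with a probe, 16 were well above background in the mock RNA of SK-MES-1, against 9 to 11 in the control RNA of the other 7 arrays. *TP63*, *SOX2*, *KRT14*, *KRT15*, *KRT17* and *S100A2* were among the 16, while *KRT5*, *KRT6A*, *DSG3* and *IVL* were not well above background. Thus part of the defining squamous markers was absent at this sensitivity. Of the epithelial genes 22 of 29 were well above background, with *EPCAM* and *KRT8* but without *CDH1*. The control RNA of the other 7 arrays held 16 to 29 of them. Of the mesenchymal genes 26 of 32 were well above background, against 20 to 25 on the other 7 arrays. *VIM*, *FN1* and *ZEB1* were among the 26, while *ZEB2*, *SPARC*, *FBN1*, *POSTN*, *COL1A2* and *COL3A1* were not well above background. The mock RNA held 6 of 16 adenocarcinoma lineage markers (37.5%), without *NKX2-1*, against 12.5% to 43.8% on the other arrays. It held 3 of 16 neuroendocrine markers (*DLL3*, *NCAM1* and *UCHL1*), which is 18.8%, against 6.2% to 31.2%. It also held 6 of 15 blood cell markers, with *CD4* and *PTPRC* but without *HBB*. The call of *PTPRC* rested on 1 probe with a mock intensity of 36.2, near the lowest green signal called well above background (23.3). Of the endothelial and fibroblast markers it held 6 of 17, with *CDH5* and *COL1A1* but without *PECAM1*. These shares were 40.0% and 35.3%, against 33.3% to 46.7% and 11.8% to 35.3% on the other 7 arrays. Of all green spots that were not controls, 46.4% were well above background. In bulk RNA, fewer cells of a kind and less RNA per cell cannot be told apart.

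Most genes of SK-MES-1 cells differed little between both channels. The median log2 ratio of *miR-150-3p* over mock was 0.02, and the middle 50% of the genes lay between -0.18 and 0.23. A log2 ratio below -1 was found in 205 genes (1.27%) and one above 1 in 415 genes (2.57%). At the milder limits, 1067 genes (6.60%) were below -0.5 and 1571 (9.71%) above 0.5. More than 1.96 software errors from 0 were 1208 genes (7.47%) on the lower side and 1197 (7.40%) on the higher side. A value nearer to 0 than that is called within its error below. Of the 415 genes above 1, 342 had no probe well above background in the green channel, and 35 of the 205 below -1 had none in the red channel. Over probes well above background in both channels, 14465 genes had a value, with 177 below -1 (1.22%) and 68 above 1 (0.470%). The counts thus held more higher than lower genes with dim probes included, and more lower than higher genes without them. With another background correction (normexp) and loess normalization, 19 genes were below -1 and 8 above 1. Over probes well above background in both channels, the genes nearest to the limits were *BBOX1-AS1* at -1.005 (inside) and *NIM1K* at -0.999 (outside) on the lower side. Over its 2 counted probes *BBOX1-AS1* was at -0.76, within its error. On the higher side they were *TMOD1* at 1.01 and *SPINK13* at 0.996.

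**Figure D1:**
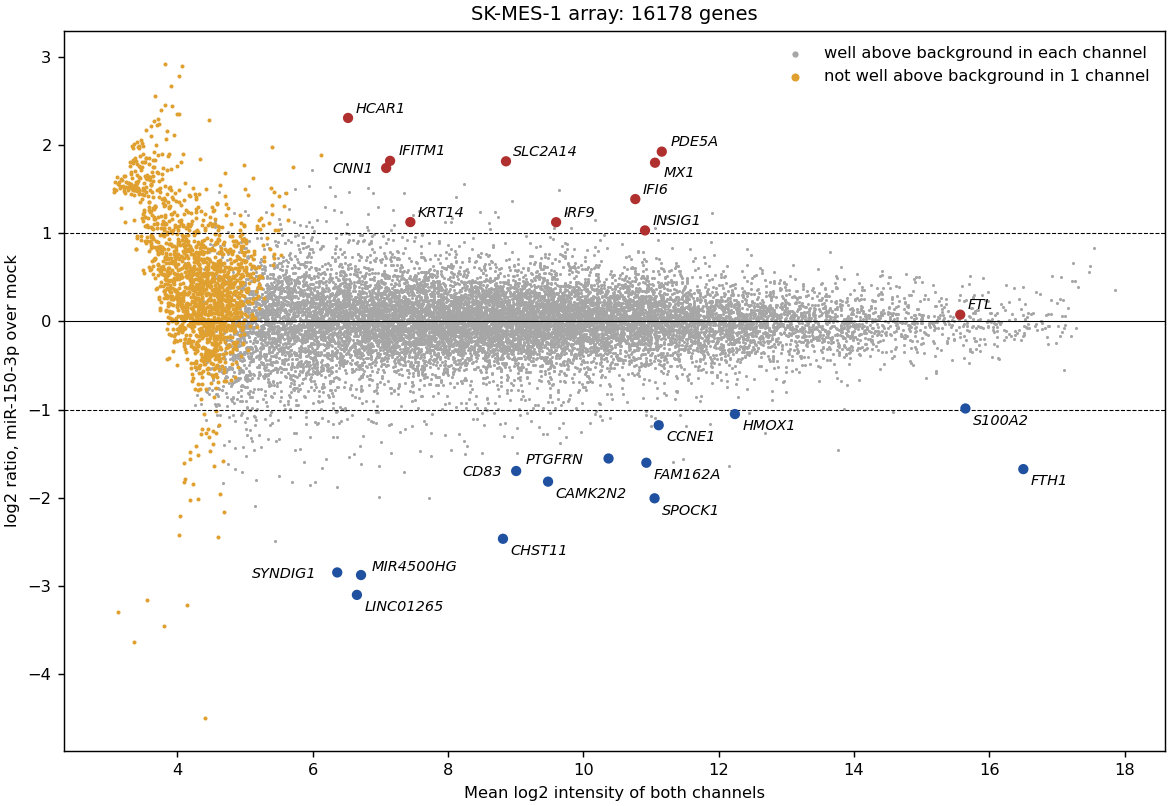
Each point is 1 of the 16178 counted genes in SK-MES-1, with their mean log2 intensity of both channels on the x axis and the log2 ratio of *miR-150-3p* over mock on the y axis. Dashed lines mark -1 and 1, orange points have no probe well above background in 1 channel, and blue and red points are named genes. Most points above 1 are orange and dim, and *FTH1* (-1.67) stands below all other genes of its brightness.

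The lowest genes with both channels well above background were a mixed group of noncoding RNAs, secreted and surface proteins and signaling genes. The ratio of *LINC01265*, a long intergenic noncoding RNA, was the lowest, with an intensity of 295 in mock and 34.4 with *miR-150-3p* (-3.10 ± 0.37). *MIR4500HG*, a host transcript of a miRNA, had 284 and 38.8 (-2.87 ± 0.35). *LINC00618* had 420 and 105 (-2.005 ± 0.28), and *LINC01029* 48 and 13.5 (-1.83 ± 0.41). None of these 4 noncoding RNAs was past an intensity of 420 in either channel. *LINC01265*, *LINC01029* and, of the genes named below, *FRMPD4* had 1 more probe each, not well above background in either channel. That of *LINC01265* had 6.76 and 3.82. Among coding genes, *CHST11*, a sulfotransferase that builds chondroitin sulfate, had an intensity of 1056 in mock and 192 with the miRNA (-2.46 ± 0.31). *SPOCK1*, a secreted proteoglycan of the extracellular matrix, had 4256 and 1061 (-2.004 ± 0.28) and was the brightest of the 15 lowest genes. *SLIT2*, a secreted guidance cue, had 96.9 and 27.5 (-1.82 ± 0.31), and *TNFSF4*, the ligand of the T cell receptor OX40, had 72.8 and 17.1 (-2.09 ± 0.37). *CAMK2N2*, an inhibitor of the calmodulin-dependent kinase CaMKII, had 1339 and 381 (-1.81 ± 0.26). The others of the 15 were *SYNDIG1* (-2.84), a synaptic membrane protein, *DIRAS3* (-2.49), an imprinted small GTPase, *SSUH2* (-1.99), *LINGO2* (-1.88), *SH2D1B* (-1.86) and *FRMPD4* (-1.80).

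These low values were not all particular to the *miR-150-3p* array. *SYNDIG1* was at -3.96 to -3.74 on the A549 arrays and *DIRAS3* at -3.69 and -3.12 on the 2 other arrays that counted it, which is lower than in SK-MES-1. With the mean of the other arrays subtracted, *SYNDIG1* came to 1.04 and *DIRAS3* to 0.91. In contrast, *CHST11* was between -0.39 and 0.44 on the 6 arrays of other treatments, and *CAMK2N2* between -0.32 and 0.95. Of the 177 genes below -1, 152 were counted on at least 1 of these arrays, and 134 of them were lower in SK-MES-1 than on every such array. The share of all genes that lay below every such array was 18.5%, a share that includes genes with any ratio. With normexp and loess, *CHST11* (-1.66), *SPOCK1* (-1.77) and *CAMK2N2* (-1.33) were still below -1, while the other 12 of the 15 lowest genes lay between -0.95 and -0.22.

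The highest genes with both channels well above background included antiviral genes, a sugar transporter and signaling genes. *HCAR1*, the lactate receptor, had an intensity of 41.3 in mock and 205 with *miR-150-3p* (2.31 ± 0.31). *PDE5A*, the phosphodiesterase that degrades cGMP, had 1174 and 4459 (1.92 ± 0.27). *MX1*, an interferon-induced GTPase that blocks viruses, had 1144 and 3983 (1.80 ± 0.26). *IFITM1*, an interferon-induced membrane protein, had 75.3 and 266 (1.82 ± 0.28), with its 2 probes at 1.78 and 1.87. *SLC2A14*, a glucose transporter, had 247 and 870 (1.82 ± 0.26). *CNN1*, the calponin of smooth muscle, had 74.4 and 248 (1.74 ± 0.27). *CEND1*, a regulator of neuronal cell cycle exit, had 474 and 1336 (1.49 ± 0.25), and *MFNG*, a glycosyltransferase that modifies Notch, had 56.1 and 154 (1.46 ± 0.26). *TP53INP1*, a p53-induced gene, was at 1.65 over its probe that was well above background in both channels and at 1.24 over both of its probes. The others of the 15 were *MIAT* (1.81 over 1 probe, 0.75 over its 3), *IQCN* (1.55), *LOC101927253* (1.54), *NYAP2* (1.53), *SLC12A2-DT* (1.51) and *ZNF425* (1.502). *MX1*, *IFITM1* and *CEND1* were above all 6 arrays of other treatments, whose highest values were 0.76, 0.80 and 0.85. *PDE5A* was not, as 1 of these arrays was at 2.09. Nor was *SLC2A14* far from them, with up to 1.79. Of the 68 genes above 1, 63 were counted elsewhere and 46 were higher than on every such array. The share of all genes above every such array was 15.5%, a share that includes genes with any ratio. The 68 were chosen by their high ratio on this array, so the comparison is not like for like. After normexp and loess, *PDE5A* (1.65), *MX1* (1.60), *SLC2A14* (1.25) and *CEND1* (1.22) stayed above 1 and *HCAR1* came to 0.73.

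The shares past the limits were also counted by kind of gene. Of 1045 long noncoding RNAs with both channels well above background, 2.30% were below -1 and 1.05% above 1. Among 12815 protein-coding genes the shares were 1.16% and 0.445%. Of 230 small nucleolar RNAs 3 were below -1, of 322 transcribed pseudogenes 1 was, and of neither kind was a gene above 1 (0). Brightness differs between kinds of gene, and its part in these shares was not tested.

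The same miRNA had a larger spread of ratios in EBC-1, whose mock RNA was another sample. The SD over genes was 0.43 in SK-MES-1 and 0.70 in EBC-1. A set of 12564 genes had both channels well above background on both arrays. Of its 88 genes below -1 in SK-MES-1, 47 (53.4%) were below -1 in EBC-1 too, where 764 genes (6.08% of the set) were. The 47 were 6.15% of the EBC-1 genes. Of 38 genes above 1 in SK-MES-1, 23 (60.5%) were above 1 in EBC-1, where 403 genes (3.21%) were, and they made up 5.71% of these. Each line had 1 array, and the difference between lines was not tested.

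The study listed candidate targets of *miR-150-3p* from genes with a predicted site for it, raised in LUSQ tissues and lowered by its transfection. It gives EBC-1 values with the list. The EBC-1 values thus only describe that choice. Whether SK-MES-1 values entered it as well is not given in the sources used here, so the list is not independent evidence of its direction in SK-MES-1. Of 49 listed genes, 46 were counted in SK-MES-1, all with both channels well above background. Their median log2 ratio was -0.38, against 0.02 over all genes, and 40 of the 46 were below 0. None was above 0.5, 15 (32.6%) were below -0.5 and 5 (10.9%) below -1, against 6.60% and 1.27% of all genes. Beyond 1.96 software errors lay 20 of the 46 (43.5%) on the lower side and none on the higher side, against 7.47% and 7.40%. The median on the 6 arrays of other treatments ranged from -0.14 to -0.01, and it was -1.76 in EBC-1. With normexp and loess the SK-MES-1 median was -0.22.

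The 5 candidate targets below -1 were of unlike function. *CAMK2N2* is given above. *FAM162A*, a mitochondrial protein that responds to hypoxia, had an intensity of 3403 in mock and 1122 with *miR-150-3p* (-1.60 ± 0.25). *PTGFRN*, a membrane partner of tetraspanins, had 2272 and 774 (-1.55 ± 0.25). *YDJC*, a deacetylase-like protein, had 3092 and 1355 (-1.19 ± 0.23). *CCNE1*, the cyclin E that drives entry into S phase with CDK2, had 3333 and 1475 (-1.18 ± 0.23). All 5 stayed below -1 with normexp and loess, from -1.44 to -1.005 for the 4 given here and -1.33 for *CAMK2N2*. In EBC-1 they were at -2.51 to -1.49. *CCNE1* was as low as -1.04 on 1 array of another treatment, whereas *FAM162A*, *PTGFRN* and *YDJC* were not below -0.62 on any.

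Next in order were *NETO2* (-0.86), *E2F2* (-0.80), *CIT* (-0.78), *POC1A* (-0.65), *KNL1* (-0.63), *TNS4* (-0.63) and *PRKAA2* (-0.61). *E2F2* is an S phase transcription factor, citron kinase (*CIT*) acts in cytokinesis and *KNL1* in the kinetochore. *TNS4*, a tensin of focal adhesions, was at -1.05 in EBC-1 and from -1.30 to 1.49 on the other arrays. *HELLS*, the chromatin remodeler that the study followed up, had 503 in mock and 457 with *miR-150-3p*. Its log2 ratio was -0.14 ± 0.21, with probes at -0.06 and -0.22, and lay within its error. Its value on the EBC-1 array was -1.87. The study's lower *HELLS* mRNA and protein after *miR-150-3p* transfection were reported for EBC-1. *MCM4* (-0.16), *CENPA* (-0.21), *SKA3* (-0.22) and *EZH2* (0.03) were within their errors as well. *DAZAP2*, listed at a mean of 0.01, had probes that disagreed. Its bright probe had 17381 in mock and 7434 with the miRNA (-1.23 ± 0.23), and its dim probe was not well above background in green (1.25 ± 0.53). Of the 46, 22 were lower than on every array of other treatments and none was higher, against 18.5% and 15.5% of all genes.

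**Figure D2:**
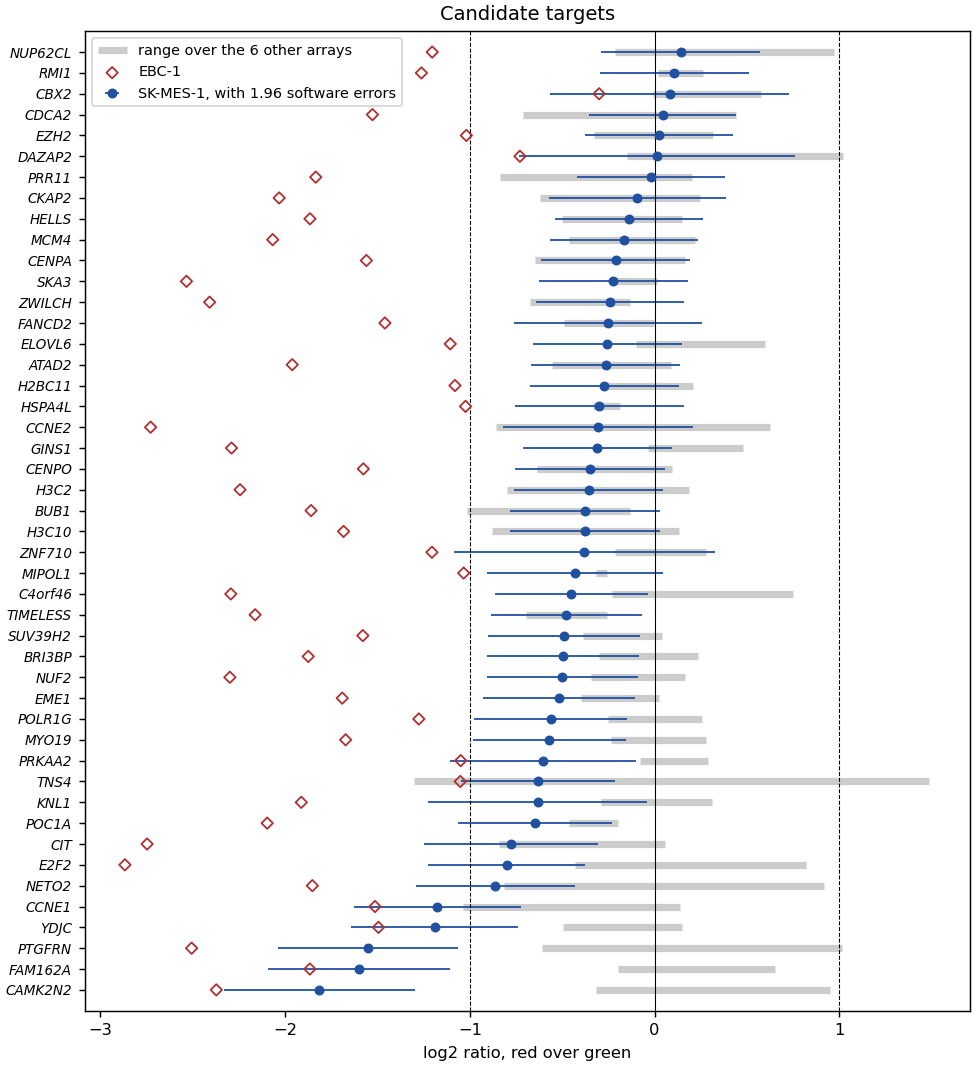
The log2 ratio of the 46 counted candidate targets is shown on the x axis, with SK-MES-1 as blue points and bars of 1.96 software errors, EBC-1 as open red diamonds, and a gray bar from the lowest to the highest of the 6 arrays of other treatments. The 5 lowest genes in SK-MES-1 are below -1, 40 of 46 are below 0, and the EBC-1 values lie farther left for most genes. The list was given with EBC-1 values of the study, while those shown are means over counted probes and can differ from them.

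Lists of DNA replication and mitosis had medians below 0 by small amounts. The median of 57 S phase genes was -0.26, with 49 of 57 below 0. There were 7 (12.3%) below -0.5 and none above 0.5, against 6.60% and 9.71% of all genes. The list held 2 genes below -1 (3.51%, against 1.27% of all genes), *CCNE1* and *UHRF1*. *UHRF1*, which brings DNMT1 to hemimethylated DNA, had 1667 and 824 (-1.02 ± 0.22), with probes at -1.06 and -0.98. *E2F1* was at -0.59. *RRM2* (0.19), *MCM5* (0.17) and *POLD3* (0.15) were within their errors. Of the S phase genes 15 of 57 (26.3%) lay below 0 by more than 1.96 software errors, against 7.47% of all genes. The list median was between -0.32 and 0.04 on the 6 arrays of other treatments, a range that holds the SK-MES-1 value, and -1.93 in EBC-1, where 55 of 57 genes were below -1. The same list thus had a median nearer to 0 in SK-MES-1, a difference that was not tested.

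The median of 64 G2/M genes was -0.10, and it was 0.01 and 0.02 with the mean of the A549 arrays or of all 6 other arrays subtracted. *CDCA5*, the sororin that holds sister chromatids together, was lowest with 9298 and 5377 (-0.79 ± 0.22), followed by *CDK1* (-0.56 ± 0.25), the kinase of mitotic entry. No G2/M gene was above 0.5. The EBC-1 median was -1.58. Of 54 counted replication-dependent histone genes, which are transcribed in S phase, 50 were below 0, with a median of -0.32 and 7 below -0.5. These genes resemble each other so closely that their probes may share signal. *H2BC12* was at -0.85 with probes at -1.44 and -0.25. The histone medians of the other arrays ran from -0.48 to 0.27. Among 25 regulators of G1, the median was -0.03. *CDK2*, the partner of cyclin E, was at -0.71 ± 0.22, cyclin D1 (*CCND1*) at -0.50 ± 0.21 and the p53-induced inhibitor *CDKN1A* at -0.46 ± 0.22. The inhibitors *CDKN1B* (0.61 ± 0.21) and *CDKN1C* (0.71 ± 0.21) and the kinase *CDK6* (0.58 ± 0.21) were on the higher side. *CDKN1A* was at 0.46 to 1.22 on the 6 other arrays, so that all of them were higher than SK-MES-1.

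The genes that interferon induces were shifted to the higher side. Of 66 counted effectors of 70 listed, 61 were above 0 and the median was 0.33. There were 24 (36.4%) above 0.5 and 6 (9.09%) above 1, against 9.71% and 2.57% of all genes. Below -0.5 was 1 (1.52%, against 6.60%). By the software error, 25 (37.9%) were higher and 1 (1.52%) lower, against 7.40% and 7.47% of all genes. Counted through 1 channel alone were 3 of the 66, and over the other 63 the median was 0.29. The 6 above 1 were *IFITM1*, *MX1*, *IFI6*, *GBP5*, *OAS2* and *TRIM22*. *IFI6*, a membrane protein that restricts viral replication, had 1079 in mock and 2821 with *miR-150-3p* (1.39 ± 0.24). *OAS2*, a synthetase of the 2-5A messenger, had 41.4 and 90.8 (1.13 ± 0.31), with 1 of 3 probes well above background in both channels. *GBP5* (1.21 ± 0.60) and *TRIM22* (1.11 ± 0.53) were not well above background in mock, which gave ratios of at least 1.04-fold and 1.16-fold. Next came *IFIT1* (0.85), *IFIT3* (0.83) and *APOL6* (0.82). *TRIM5*, a capsid restriction factor, was lowest at -0.55 ± 0.26, and *IDO1*, which degrades tryptophan, was at -0.33 ± 0.31 here and at 3.67 in EBC-1. The paralogs of *IFITM1*, *IFITM2* and *IFITM3*, were at 0.03 each. The list median was 0.16 with normexp and loess, where *MX1* (1.60) and *IFI6* (1.23) stayed above 1.

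On the arrays of other treatments the effectors had medians of -0.12 to 0.16, and in EBC-1 0.79. Of 63 members counted elsewhere, 18 were above every such array and 4 below, against 15.5% and 18.5% of all genes. *MX1* was at -0.71 to 0.76 there and *IFI6* at -0.65 to 0.75. *GBP1*, with 0.69 in SK-MES-1, was below all of them. *IFI6* was at 0.26 in EBC-1, so its place among the highest effectors was not shared by that line.

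**Figure D3:**
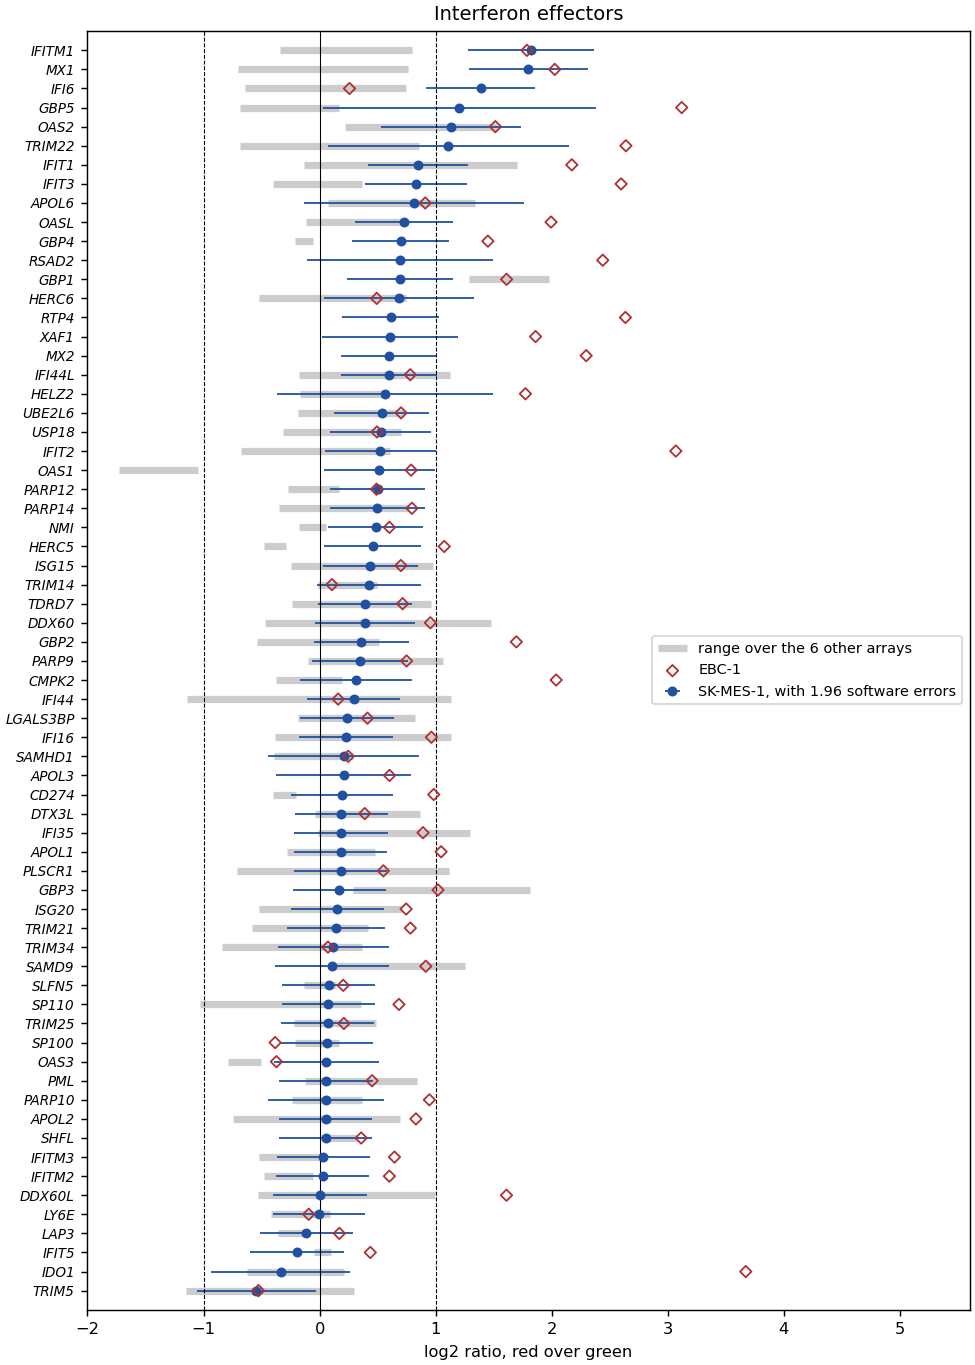
The log2 ratio of the 66 counted interferon effectors is shown on the x axis, with SK-MES-1 as blue points and bars of 1.96 software errors, EBC-1 as open red diamonds, and a gray bar from the lowest to the highest of the 6 arrays of other treatments. In SK-MES-1 61 of 66 are above 0 and *IFITM1*, *MX1* and *IFI6* stand at the top, to the right of their gray bars.

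Promoters of the effectors were read to show the element through which interferon acts. The factor ISGF3, which holds IRF9, binds the interferon-stimulated response element, whose core is GAAANNGAAA. This core was searched on both strands of RefSeq promoters (build GRCh38.p14, 250 bases before to 50 after each listed start). Among 27305 genes with a promoter, 4.38% held it, and among counted genes 4.01%. Of the 48 counted effectors with a promoter in the table, 35 (72.9%) held it. The effectors had a median of 0.35 with the core and of 0.31 without it. Over all counted genes the medians were 0.04 with the core (500 genes) and 0.01 without (11976 genes). Of the genes above 1 with both channels well above background, 4 of 46 (8.70%) held it. The promoters of 3 of the highest effectors and of 2 with low values are shown, each as a stretch around 1 match, with the match in capitals. *MX1* lies at chr21:41420559-41420588 (plus strand), *IFITM1* at chr11:314024-314053 (plus), *IFI6* at chr1:27672288-27672317 (minus), *IFITM3* at chr11:320876-320905 (minus) and *TRIM5* at chr11:5685082-5685111 (minus), all 5′ to 3′ on the strand of the gene.
MX1: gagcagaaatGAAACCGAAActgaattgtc
IFITM1: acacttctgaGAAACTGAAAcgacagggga
IFI6: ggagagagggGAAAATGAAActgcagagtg
IFITM3: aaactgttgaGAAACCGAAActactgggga
TRIM5: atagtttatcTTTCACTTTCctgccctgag
The core began 11 bases after the start in *MX1*, and 6, 115, 35 and 27 bases before it in *IFITM1*, *IFI6*, *IFITM3* and *TRIM5*. *TRIM5* holds it on the opposite strand. The core was thus in promoters of effectors with ratios of 1.80 and of 0.03 alike, and a match is not a measured binding site.

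Upstream of these effectors the values were smaller. Of 13 sensors and adaptors of double-stranded RNA the median was 0.14, and 4 (30.8%) were above 0.5, against 9.71% of all genes. Among the 4 were *IFIH1*, which encodes MDA5 (0.68 ± 0.22), *DHX58* (0.63 ± 0.21) and *RIGI* (0.52 ± 0.22). The adaptors *MAVS* (-0.19) and *TICAM1* (-0.23) and the kinase *TBK1* (0.02) were within their errors. The 8 counted interferons and receptors lay between -0.48 (*IFNE*) and 0.40 (*IFNGR1*). Of 20 IRF and STAT genes, the median was 0.12, at the lower end of the medians of the 6 other arrays (0.11 to 0.29). *IRF9*, the DNA-binding subunit of ISGF3, was the one above 1, with 525 and 1145 (1.13 ± 0.23), against 0.02 to 0.93 on the other arrays and 1.13 in EBC-1. *STAT2* was at 0.36 and *IRF1* at 0.31. *IRF8* (-0.71) and *IRF4* (-0.55) were lowest.

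Genes of MHC class I presentation were shifted together by a small amount. Of 20, all counted, 19 were above 0, with a median of 0.30, and 4 above 0.5. Among them were *PSMB9* of the immunoproteasome (0.68 ± 0.21), the trimming peptidase *ERAP1* (0.64 ± 0.21) and *HLA-F* (0.61 ± 0.21). The HLA genes resemble each other, and their probes may share signal. The median was 0.32 with normexp and loess and lay at 0.07 to 0.25 on the other arrays. On this list 11 of 20 were above every array of other treatments and none below, against 15.5% and 18.5% of all genes.

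Cytokines and NF-kB targets went both ways. Of 38 counted, 6 (15.8%) were below -0.5 and 7 (18.4%) above 0.5, against 6.60% and 9.71% of all genes. *CD83*, a surface protein of activated immune cells, had 926 in mock and 286 with *miR-150-3p* (-1.69 ± 0.26) and was at -3.66 in EBC-1. The chemokine *CCL20* had 43.6 and 17 (-1.36 ± 0.40), *IL1B* 520 and 253 (-1.04 ± 0.23), and *IL6* 311 and 188 (-0.72 ± 0.22). In EBC-1 *CCL20* was at 3.80, *IL6* at 2.63 and *IL1B* at 0.24. *TNFSF10*, the death ligand TRAIL, had 282 and 643 (1.19 ± 0.23), with 0.11 as its highest value elsewhere and 1.41 in EBC-1. *ICAM1* was at 0.66 ± 0.21. The chemokines *CXCL11* (2.06 ± 0.79) and *CXCL10* (1.59 ± 0.76) were not well above background in mock, and their red signals of 22.6 and 23.0 did not pass the lowest green signal called well above background (23.3). No fold is given for them. After normexp and loess *CD83* was at -1.17, *TNFSF10* at 0.81, *IL1B* at -0.52 and *CCL20* at -0.18.

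Genes of the BCL2 family, which promote or inhibit cell death, had values of both signs. *BCL2L1*, which encodes the death inhibitor BCL-XL, had 514 and 281 (-0.87 ± 0.22), and on the 6 other arrays it was not below -0.31. The death promoters *BMF* (0.91 ± 0.26), *BBC3* (0.89 ± 0.22), which encodes PUMA, and *BCL2L11* (0.58 ± 0.22), which encodes BIM, were higher. *BAD* (-0.48 ± 0.21), also a death promoter, and the inhibitor *BCL2A1* (-0.50 ± 0.21) were lower, and *BAX* (-0.39 ± 0.21) was within its error. *BBC3* was above the range of the other arrays (0.05 to 0.68), while *BMF* (up to 1.35) and *BCL2L11* (up to 1.53) were within it. Of 18 members, 3 were higher and 3 lower by more than 1.96 software errors (16.7% each way, against 7.40% and 7.47% of all genes), and the median was 0.11. Of 32 p53 targets, the median was 0.15, within 0.03 to 0.36 on the other arrays. *TP53INP1* was the one above 1 (3.1%, against 2.57% of all genes). *SESN1* (0.65) and *TIGAR* (0.58) were above 0.5, and *POLH* (-0.74) was lowest. The p53 targets thus held values of both signs, with *CDKN1A* among the lower ones.

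*FTH1*, the heavy chain of ferritin, was measured by 3 probes, at -1.73, -1.65 and -1.64. Their mock intensities were 158131, 136381 and 212078, and 47703, 43514 and 67914 with *miR-150-3p*, so each probe was lower by a like amount. The gene's value was -1.67 ± 0.26. It was -1.60 with normexp and loess. On the 6 arrays of other treatments *FTH1* was between -0.19 and 0.40, and in EBC-1 at -0.47. The light chain of ferritin, *FTL*, named after its value was seen, had 47415 and 50019 (0.08 ± 0.20). Of other iron genes named in the same way, the transferrin receptor *TFRC* (0.13) and the ferritin receptor *NCOA4* (0.13) were within their errors, and the iron exporter *SLC40A1* was at 0.49 ± 0.23. *HMOX1*, the heme oxygenase, had 6967 and 3366 (-1.05 ± 0.23) over 10 spots of its probe, which had an SD of 0.034. In EBC-1 it was at 2.45 ± 0.31, and on the other arrays at -0.62 to 0.63. *FTH1* and *HMOX1* belong to the 28 counted targets of NRF2, the factor of the oxidative stress response, whose median was 0.08. Of that list 4 were below -0.5 (14.3%, against 6.60% of all genes). Besides *FTH1* and *HMOX1*, these were the carbonyl reductase *CBR1* (-0.78) and the aldehyde dehydrogenase *ALDH3A1* (-0.66). *TXNRD1* (0.50), *SLC7A11* (0.50) and *EPHX1* (0.48) were on the higher side, so the list did not move one way.

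**Figure D4:**
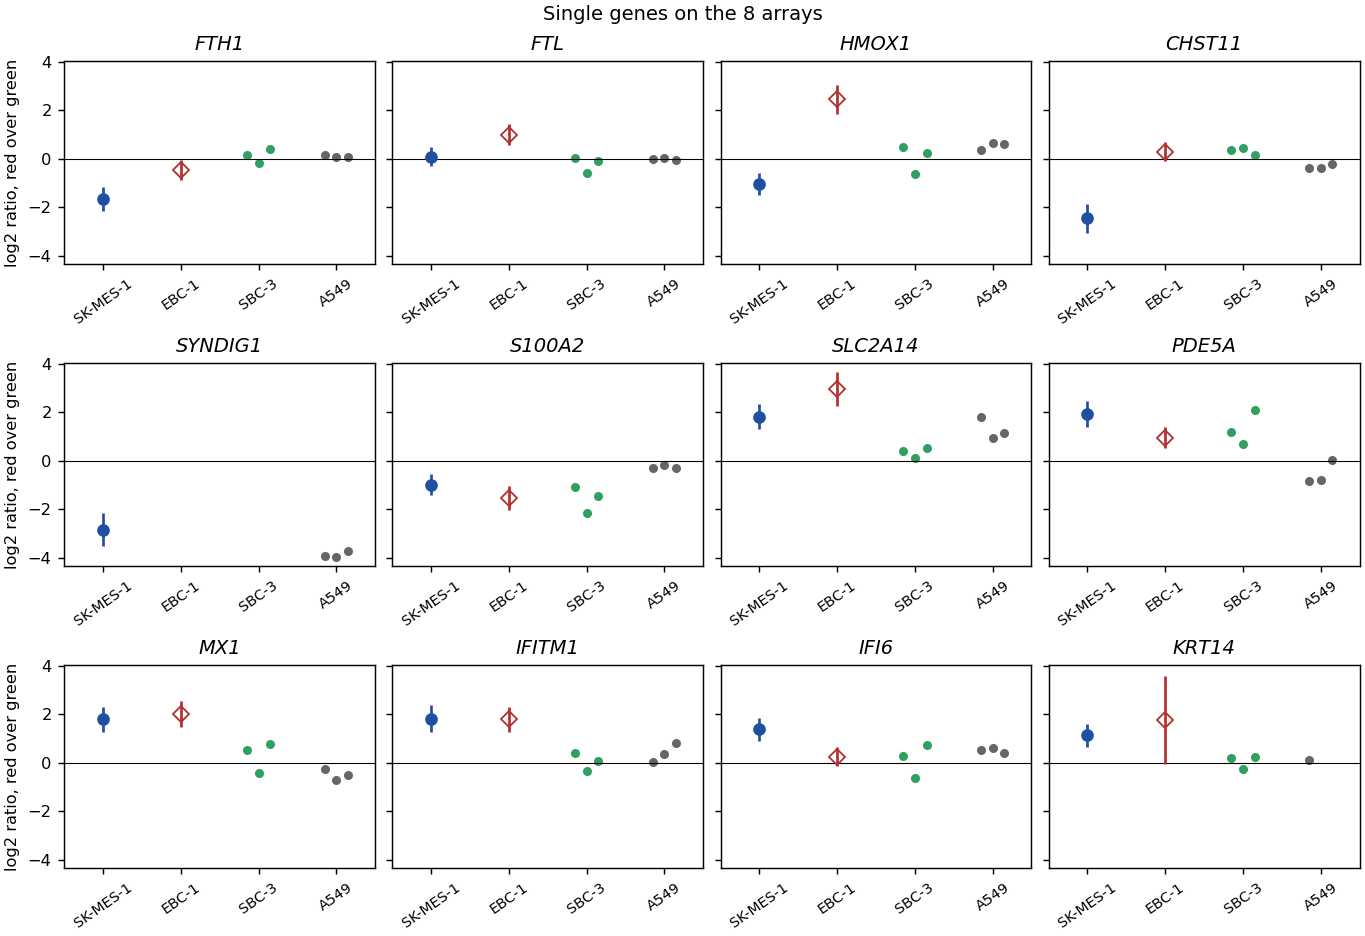
Log2 ratios of 12 genes are shown by array, for SK-MES-1 and EBC-1 with bars of 1.96 software errors and for the 3 SBC-3 and 3 A549 arrays as points. *FTH1* and *CHST11* are lowest in SK-MES-1, *FTL* is near 0, *HMOX1* is below 0 in SK-MES-1 and above 0 in EBC-1, and *SYNDIG1* is low on the A549 arrays too.

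Sugar and lipid genes held values of both signs. Of 9 counted SLC2A transporters, 2 (*SLC2A3* and *SLC2A12*) were counted through the red channel alone, in which they were the higher. Over the 7 with both channels well above background the median was 0.38, and *SLC2A14*, given above, was the one above 1. *SLC2A3*, its near-identical paralog, had 96.2 with *miR-150-3p* and was not well above background in mock, which gave at least 3.36-fold, and the probes of both may share signal. *SLC2A3* was at 0.21 to 1.81 on the other arrays and at 2.41 in EBC-1. *SLC2A12* (1.46 ± 0.88) was dim and came to -0.20 with the other arrays subtracted. *SLC2A1*, the main glucose transporter of most cancer lines, had 15656 and 16127 (0.04 ± 0.20). Of 49 genes of hypoxia and glycolysis, the median was -0.01. Besides *FAM162A*, the hexokinases *HK2* and *HK1* (both -0.59 ± 0.21) were on the lower side and the oxygen sensor *EGLN3* (0.77 ± 0.22) and *DDIT4* (0.69 ± 0.21) on the higher side. Of 32 genes of cholesterol and fatty acid synthesis, 5 (15.6%) were above 0.5, against 9.71% of all genes, and 1 was below -0.5. *INSIG1*, the brake of SREBP, had 1347 and 2755 (1.03 ± 0.22). *HMGCS1* had 522 and 1014 (0.96 ± 0.22), *MSMO1* was at 0.93 ± 0.23 and *DHCR7* at 0.79 ± 0.22. *INSIG1* reached 1.67 on another array, whereas *HMGCS1* was not above 0.09 on any. Fatty acid synthase (*FASN*) was at -0.35. The list's median of 0.19 turned to -0.09 with the A549 arrays subtracted. Of 36 genes of ATF4 and the unfolded protein response, the median was 0.05. *CHAC1*, which degrades glutathione, was at 1.24 ± 0.51 over its 2 probes and at 0.85 ± 0.22 over the 1 that was well above background in both channels. The lowest was the stress sensor *ERN1* at -0.87 ± 0.38.

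The squamous markers did not move together. *KRT14* (118 and 257, 1.13 ± 0.23) and *KRT17* (101 and 215, 1.09 ± 0.24), keratins of basal cells, and *TRIM29* (31.2 and 67.2, 1.11 ± 0.29) were above 1. *S100A2*, a calcium-binding protein of basal cells, had 72260 and 36480 (-0.99 ± 0.22), *SOX2* had 88.2 and 46.5 (-0.92 ± 0.25) and *SPRR3* 34.7 and 19.8 (-0.81 ± 0.40). The median of the 17 counted was 0.04. *S100A2* stayed at -0.94 with normexp and loess, while *KRT14* (0.51), *KRT17* (0.37), *TRIM29* (0.22) and *SOX2* (-0.17) came nearer to 0. *TRIM29* was at 0.83 to 1.87 on the other arrays that counted it and came to -0.35 with them subtracted. *SOX2* was at 1.32 in EBC-1 and at 0.43 to 1.48 on the other arrays, all above SK-MES-1. Of markers of other cell types, the neuroendocrine *NCAM1* was at 1.07 ± 0.31, with 1 of its probes well above background in both channels (0.53). The adenocarcinoma lineage markers *ABCA3* (1.98 ± 0.81) and *SFTPD* (1.06 ± 0.56) were not well above background in mock. *SFTPD* came to -0.44 with all other arrays subtracted and -0.31 with those of A549. These lists had 7 and 9 counted members. None of the 9 blood cell markers was past 1, and *COL1A1* was the one among 8 endothelial and fibroblast markers.

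Genes of the matrix and of adhesion had values of both signs. *COL1A1*, the main chain of type I collagen, had 3979 and 1904 (-1.06 ± 0.23). The other mesenchymal genes on the lower side were *CCN2* (769 and 416, -0.89 ± 0.22), the lysyl oxidase *LOX* (1341 and 801, -0.74 ± 0.22) and fibronectin, *FN1* (-0.69 ± 0.22). In EBC-1 *CCN2* was at 1.38 and *LOX* at 1.83. *CCN1* was at 0.57 ± 0.21. The median of 27 mesenchymal genes was -0.13, and *COL1A1* ran from -1.88 to 1.90 on the other arrays. Of 24 epithelial genes 21 were above 0, with a median of 0.11, from *CLDN1* (-0.67) to *CRB3* (0.97 ± 0.85), which was not well above background in mock. The 37 genes of matrix adhesion and proteolysis had a median of 0.01, with 18 below 0 and 19 above. Below -0.5 were 6 of them (16.2%, against 6.60% of all genes) and above 0.5 were 3 (8.11%, against 9.71%). *SERPINB2* (-0.84 ± 0.22), *ITGA2* (-0.83 ± 0.25) and the urokinase *PLAU* (7151 and 4193, -0.77 ± 0.22) were lowest. *ITGAV* (3002 and 5057, 0.75 ± 0.22) and *LAMA3* (0.71 ± 0.22) were highest. *PLAU* was below all 6 arrays of other treatments, whose lowest value was -0.60, and at 0.75 in EBC-1. The TGF-beta pathway had a median of -0.08 over 29 genes, with *FST*, the activin antagonist, at -0.76 and *SMAD2* at 0.78.

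Output genes of the MAPK pathway had a median of -0.29 over 32 genes, with 23 below 0. *ETV1* was at -0.76 ± 0.27, the ligand *EREG* at -0.68 ± 0.21, the phosphatase *DUSP6* at -0.65 ± 0.21 and *FOSL1* at -0.58 ± 0.21. *FOSB* (1.42 ± 0.87) was not well above background in mock. The medians of the other arrays ran from -0.56 to 0.27 and held the SK-MES-1 value, which turned to 0.13 with the A549 arrays subtracted. Among 21 receptor tyrosine kinases, *MERTK* was at -0.95 ± 0.28, *EPHB2* at -0.62 ± 0.21, *FGFR1* at -0.54 ± 0.21 and *EGFR* at -0.47 ± 0.22. *ERBB3* was at 0.96 ± 0.32.

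Genes of the small RNA machinery stayed within 1 of 0. *DICER1* (935 and 1435, 0.62 ± 0.21) and *TNRC6A* (0.63 ± 0.21), the Argonaute partner GW182, were highest of 21, and *AGO1* was lowest at -0.41 with probes at -0.87 and 0.04. *AGO2*, the slicing Argonaute, was at -0.23 ± 0.21. Of 28 genes of DNA methylation and Polycomb, *UHRF1* alone was past 1 and the median was 0.08. The lists of housekeeping function were near 0, with medians of -0.04 for 74 cytosolic ribosomal proteins, 0.02 for 58 respiratory chain genes and 0.01 for 18 reference genes. Of the reference genes, *GAPDH* (82893 and 62026, -0.42 ± 0.21) was among the lowest and *HPRT1* (0.41 ± 0.21) was highest.

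**Figure D5:**
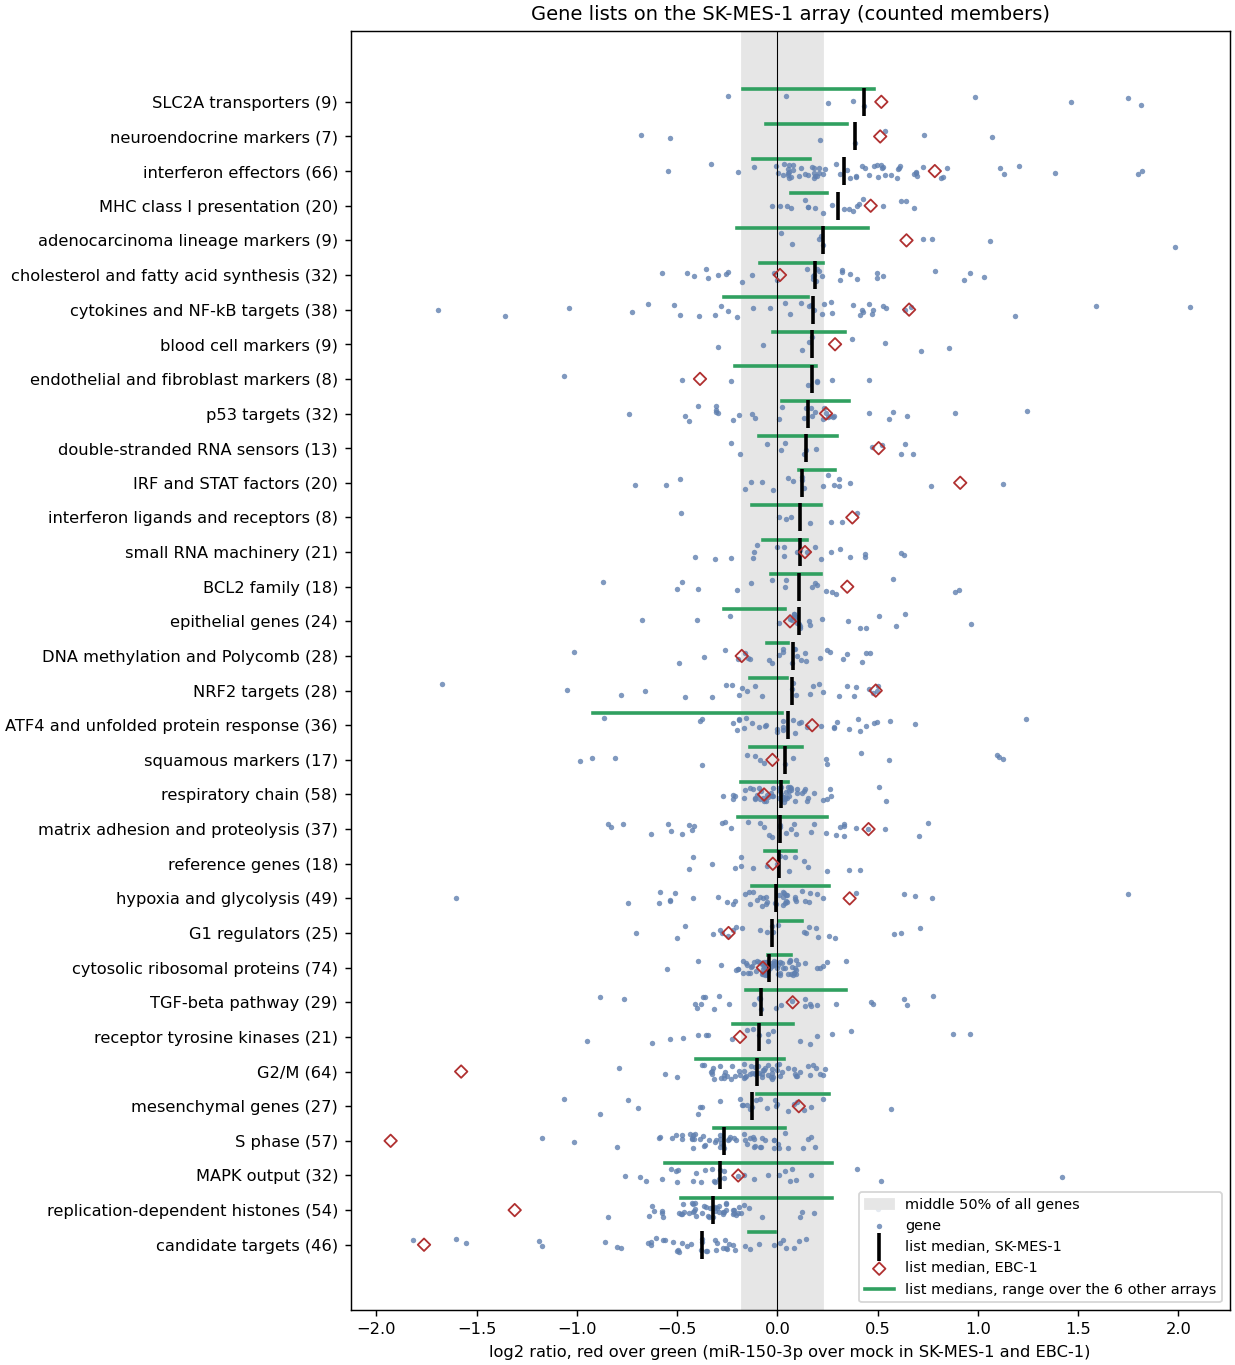
Each row is a gene list with the number of counted members, and each blue point is a gene's log2 ratio in SK-MES-1 on the x axis. Black bars are list medians in SK-MES-1, open red diamonds the medians in EBC-1, green lines the range of medians over the 6 arrays of other treatments, and the gray band the middle 50% of all genes (-0.18 to 0.23). The candidate targets (-0.38) lie at the lower end and outside their green line, as do the interferon effectors (0.33) on the upper side. Other lists lie outside theirs too, among them MHC class I presentation (0.30), neuroendocrine markers (0.39), epithelial genes (0.11) and mesenchymal genes (-0.13). The medians of SLC2A transporters (0.43) and neuroendocrine markers are above that of the effectors. The S phase median (-0.26) lies within its green line and far from its EBC-1 diamond (-1.93).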

How the data were processed

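RNA was measured on Agilent two-color oligonucleotide arrays, with the treated sample in Cy5 and the control in Cy3. The authors deposited the output of Agilent Feature Extraction (version 12.1.1.1 per the file headers), which holds processed intensities of both channels. These intensities had been corrected for background and normalized between dyes by that software. Per the file headers, the authors' log10 ratios have red as numerator, and each comes with an error. Their series-wide table repeated these log10 ratios without a difference (at most 0.0000). Software p-values and the sequences of the spots were not used.

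Of 60901 spots that were not controls, 81 marked as outliers were left out, and no spot was saturated (0). A log2 ratio was calculated from the processed intensities, replicate spots were averaged, and probes well above background in at least 1 channel were counted (31389 of 58198 probes). In green 46.4% and in red 55.7% of the spots were well above background. The counted probes of a gene were averaged. A gene's error is the software's log10 error turned to log2. Over 287 probes with at least 5 spots, the median SD over spots was 0.040, which is the spread within an array only.

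Probes were named through accessions, of which 24782 of 50094 matched a RefSeq symbol. The files name build hg19 and the RefSeq tables GRCh38.p14, so only names and promoters were taken from the latter. For a gene not well above background in 1 channel, a bound is the bright signal over the higher of the dim signal and the lowest signal called well above background (23.3 in green, 12.4 in red).

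With 1 array no test was made. Genes were counted past log2 ratios of 1 and 0.5 and past 1.96 software errors, and 34 gene lists were described by counts and medians. The members and lists were chosen with earlier results of these data known. Named genes are the 15 lowest and 15 highest with both channels well above background, the 4 lowest and 4 highest of each list, list members past 1, the candidate targets and the genes nearest to the limits. A few genes that this rule names are not reported here. The steps were tested on a simulated array. The 9 alternatives changed background correction and normalization (normexp with an offset of 50 on the median signals, as mean signals were not used here, then loess), centring, filters, the probe chosen, naming, and subtraction of the other arrays. R (version 4.3.3) with limma and Python with pandas and numpy were used.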

Additional observations from a re-analysis of the deposited data

Results flagged for a closer look

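*HMOX1*, the heme oxygenase, was past the limit in opposite directions with *miR-150-3p* in the 2 LUSQ lines. Its log2 ratio was -1.05 ± 0.23 in SK-MES-1 and 2.45 ± 0.31 in EBC-1 (software errors, 1 array each). It was the one gene below -1 in one line and above 1 in the other with both channels well above background. With probes well above background in at least 1 channel, *CCL20* was past it in opposite directions too (-1.36 ± 0.40 in SK-MES-1, 3.80 ± 0.43 in EBC-1). As each line had 1 array, these differences were not tested.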

How the results depend on the processing

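No paired analysis was possible because SK-MES-1 had 1 array, and no replicate could be left out. The counts of genes depended on the processing. With normexp and loess, 19 genes were below -1, 8 above 1, 213 below -0.5 and 198 above 0.5. Without a filter on dim probes, 575 were below -1 and 4723 below -0.5. Over probes well above background in both channels, 68 were above 1 and 719 above 0.5. Among the 8089 brighter genes, 57 were below -1, 20 above 1, 362 below -0.5 and 296 above 0.5. With the mean of the other 6 arrays subtracted, 436 were below -1 and 1681 below -0.5, and with that of the A549 arrays 546 and 1881. Counted by accession instead of by gene, 415 were below -1, 1097 above 1, 1896 below -0.5 and 3472 above 0.5. Median centring and the brightest probe of a gene kept all 4 counts within 1.5 times.

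Most list medians moved by less than the median software error of 0.21. The exceptions follow. Without a filter, the medians were -0.21 for interferon ligands and receptors, -0.21 for neuroendocrine, -0.071 for blood cell and -0.23 for endothelial and fibroblast markers. With normexp and loess they were 0.16 for SLC2A transporters and 0.027 for neuroendocrine markers. Among brighter genes they were -0.076 for neuroendocrine and -0.43 for endothelial and fibroblast markers. With the other 6 arrays subtracted they were -0.10 for IRF and STAT factors, -0.15 for p53 targets, 0.62 for ATF4 and unfolded protein response and -0.19 for neuroendocrine markers. With the A549 arrays subtracted they were 0.14 for SLC2A transporters, -0.092 for cholesterol and fatty acid synthesis, 0.48 for epithelial genes, 0.078 for neuroendocrine markers, -0.042 for blood cell markers and 0.13 for MAPK output.

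Of 60 named genes past 1, all kept their sign with normexp and loess, and 15 stayed past 1. With the other arrays subtracted, 47 of 52 kept their sign and 36 stayed past 1, and with the A549 arrays 40 of 45 and 27. The genes whose sign turned were *DIRAS3* (0.91 under both subtractions), *SYNDIG1* (1.04 under both), *SFTPD* (-0.44 and -0.31), *SLC2A12* (-0.20 under both) and *TRIM29* (-0.35 under both). The causes were not tested. Under 23.3 in green and 12.4 in red, a signal was not called well above background, which limits the dim genes.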
